A study of Mus musculus with 18 samples.

Results

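Heat shock (HS) was compared directly with tunicamycin at 45 min in DD-GFP-expressing NIH3T3 cells, a mouse embryonic fibroblast line. The comparison used 6 of the 18 mRNA-seq samples of the series, chosen by their labels: 3 labelled heat stress for 45 min and 3 labelled tunicamycin for 45 min. Each culture stably expressed a destabilizing FKBP domain (DD) fused to superfolder GFP, integrated with PiggyBac and sorted for high GFP, and the stabilizing ligand Shield-1 was kept in all cultures, so that neither stress was combined with an unfolded DD. For HS the cells were moved from the normal culture temperature to heat shock temperature, and tunicamycin was added to the other cultures at the normal temperature. The 3 unstressed samples labelled 0 min are given beside the results on the same scale, without a test of their own, and the samples of the same stresses at 135 min were used for the comparison over time. The sources do not say whether the 3 replicates of a group came from separate cultures, so the p-values measure the spread between these samples.

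The stresses act on different compartments. Heat unfolds proteins in the cytosol and nucleus, and heat shock factor 1 (HSF1) then binds heat shock elements and raises the transcription of chaperone genes, the heat shock response (HSR). Tunicamycin blocks the first step of N-linked glycosylation, so that glycoproteins misfold in the endoplasmic reticulum (ER). This starts the ER unfolded protein response (erUPR) through its sensors ATF6, IRE1 and PERK, and PERK also feeds the integrated stress response (ISR), in which eIF2 alpha is phosphorylated, ATF4 is translated and genes such as Ddit3 are transcribed.

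Between 44046381 and 66478268 reads were counted on genes in these 6 samples, and 12731 genes with at least 1 read in each of the 18 samples were tested. All 12 fibroblast markers examined, such as Col1a1 and Vim, were at 1 CPM (reads scaled to library size) or more in each of the 6 samples, and the 5 epithelial, 4 endothelial and 3 muscle markers were below 1 CPM in all of them. Of the 4 blood markers, 2 (Cd68 and Csf1r) were at 1 CPM or more in all 6 samples, with the sum of the 4 at 7.21 to 10.5 CPM in HS and 8.80 to 10.2 CPM with tunicamycin, while Ptprc and Lyz2 were below 1 CPM. Of the 3 neural markers, 1 (Tubb3) was at 1 CPM or more in all 6, with a sum of 4.08 to 7.14 CPM in HS and 6.12 to 7.35 CPM with tunicamycin. The 2 adipocyte markers summed to 0.370 to 2.25 CPM in HS and 1.99 to 2.53 CPM with tunicamycin. The summed fibroblast markers ranged from 43000 to 74600 CPM in HS and from 32800 to 44800 CPM with tunicamycin, and the part of these markers in the results was not tested. In bulk samples, fewer cells of a type and less RNA per cell cannot be told apart.

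HS replicate 3 stood apart from the other HS samples. Its log2 CPM over genes correlated with HS replicates 1 and 2 at 0.954 and 0.937, and with tunicamycin replicates 1, 2 and 3 at 0.989, 0.990 and 0.981. The levels of HS replicates 1 and 2 also increased with the GC content of the transcript relative to the mean of the 6 samples (Spearman's rho over 12400 genes 0.62 and 0.58), while those of HS replicate 3 decreased with it (-0.52), as did those of tunicamycin replicates 1, 2 and 3 (-0.62, -0.55 and -0.12). Heat shock genes were nevertheless high in HS replicate 3, as given below, so the sample was kept. EdgeR counts without it are given beside those of each list described, to be read against the 26.8% and 28.8% of all genes called without it. Such counts compare only HS replicates 1 and 2 with tunicamycin samples of the opposite GC trend, so in them stress and GC trend cannot be told apart.

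**Figure D1:**
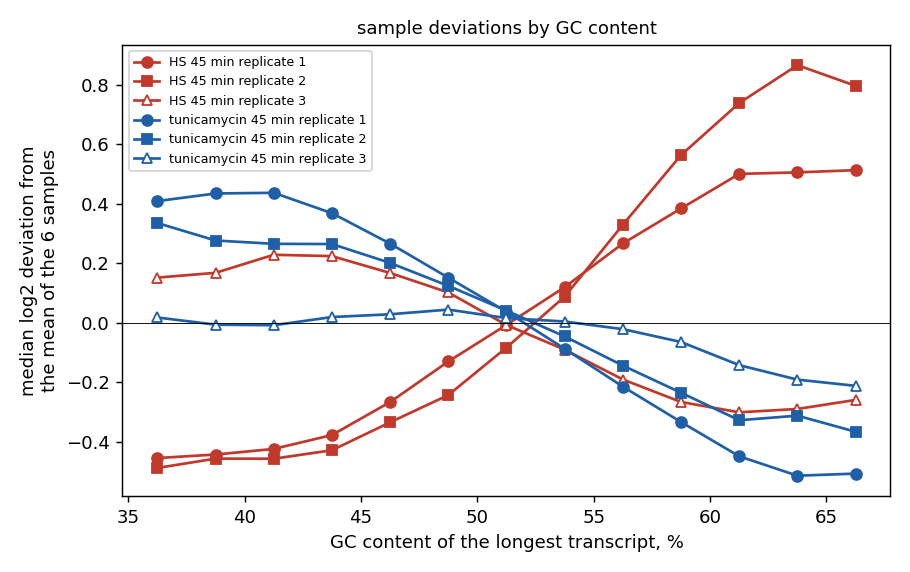
Median log2 deviation of each sample from the mean of the 6 samples (vertical axis) against the GC content of the longest transcript in percent (horizontal axis), for genes in bins of GC content. HS replicates 1 and 2 (filled red) slope upwards, whereas HS replicate 3 (open red triangles) slopes downwards with the tunicamycin samples (blue).

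In the direct comparison 26 genes passed the threshold, an adjusted p under 0.05 in edgeR's quasi-likelihood test: 8 were higher in HS (0.0628% of the genes tested) and 18 were higher with tunicamycin (0.141%). At an unadjusted p under 0.05 the numbers of genes were 1833 and 1228. Leaving out HS replicate 3 gave 3416 genes higher in HS (26.8%) and 3671 higher with tunicamycin (28.8%), with all 26 genes among them in the same direction, and leaving out any other of the 6 samples (HS replicate 1 or 2, or tunicamycin replicate 1, 2 or 3) gave 0 calls in edgeR, with 1340 to 2066 genes at an unadjusted p under 0.05. The DESeq2 Wald test called 748 genes higher in HS (5.89%) and 379 higher with tunicamycin (2.99%). An offset for GC content gave 250 genes higher in HS (1.96%) and 241 higher with tunicamycin (1.89%), and 25 of the 26 genes were among its calls, all but Sfrs5. In all 19 alternative fits each of the 26 genes kept its direction. The groups did not overlap for any of the 26 genes. Both are largely given by the choice of these genes on the same 6 samples, so nothing further is read from them. Over all genes tested, all 3 HS samples lay above all 3 tunicamycin samples for 13.1% of genes and below them for 15.7%. The counts of list members given below are to be read beside these shares and those of the calls.

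**Figure D2:**
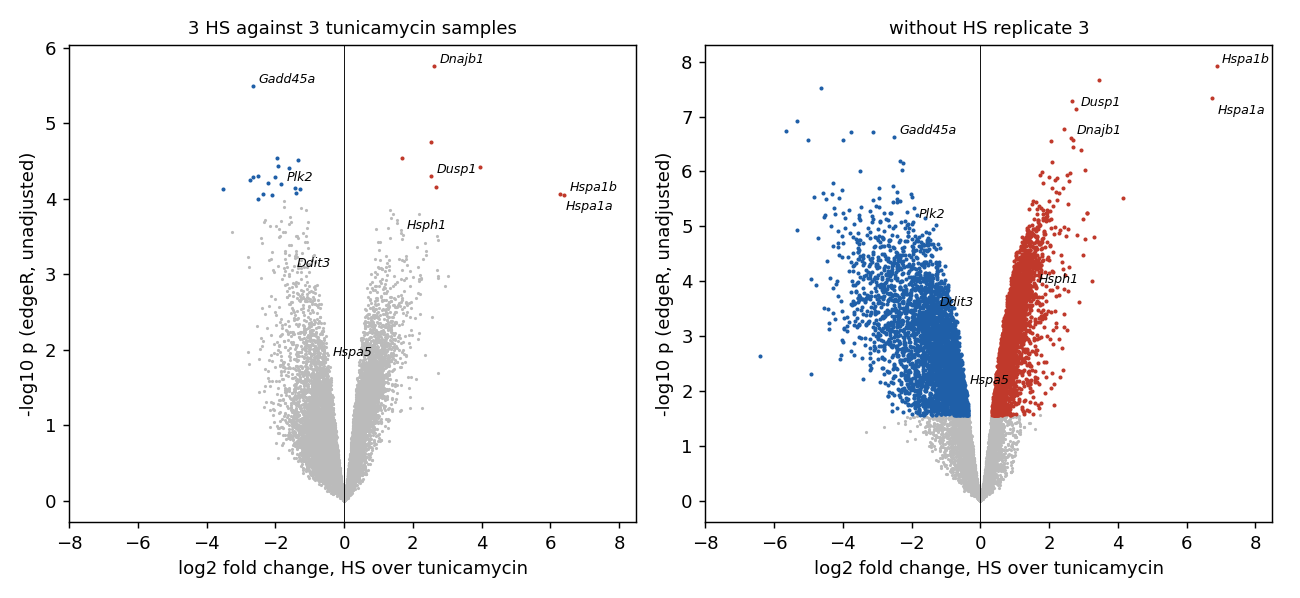
Log2 fold change of HS over tunicamycin at 45 min (horizontal axis) against -log10 of the unadjusted p from edgeR (vertical axis) for 12731 genes, with all samples (left) and without HS replicate 3 (right). Coloured genes passed an adjusted p of 0.05: 8 higher in HS (red) and 18 higher with tunicamycin (blue) on the left, 3416 and 3671 on the right.

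The unstressed samples were set beside the 26 genes. Since these genes were chosen for their difference between the stresses, the stresses tend to lie on either side of the unstressed samples by that choice, and nothing is read from these counts. Of the 8 genes higher in HS, all 8 lay below the 3 unstressed samples with tunicamycin, and 7 lay above them in HS. Of the 18 genes higher with tunicamycin, 17 lay above the unstressed samples with tunicamycin, and in HS 4 lay above, 8 below and 6 overlapped with them. Over all genes tested, HS lay above the unstressed samples for 12.5% and below for 12.8%, and tunicamycin lay above them for 17.2% and below for 16.0%. Counts of list members against the unstressed samples, given below, are to be read beside these shares.

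**Figure D3:**
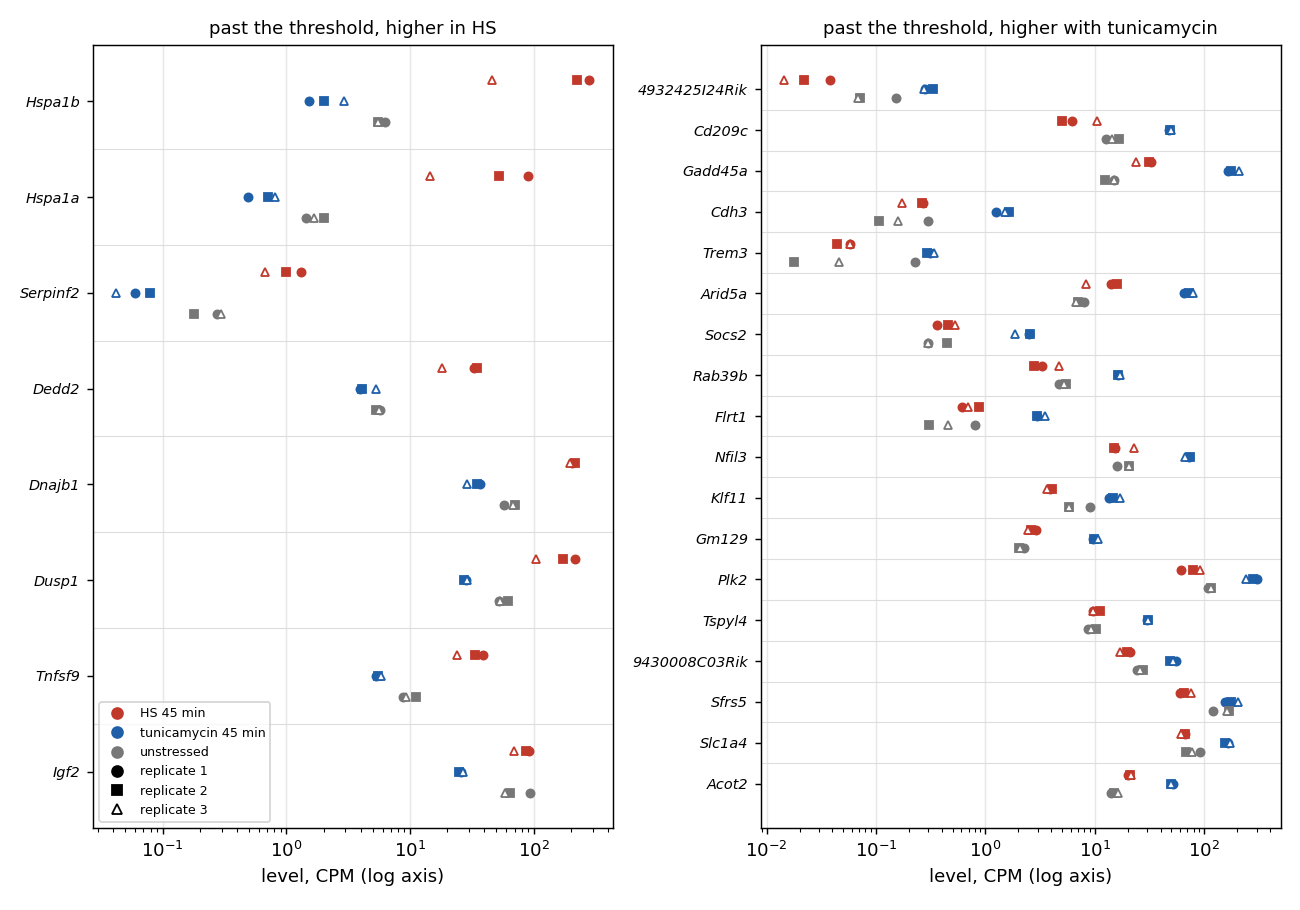
Level in CPM on a log axis of the 8 genes higher in HS (left) and the 18 genes higher with tunicamycin (right), with a symbol for each sample of HS (red), tunicamycin (blue) and the unstressed cells (grey). HS and tunicamycin samples do not overlap for any gene, and HS replicate 3 (open red triangle) is the lowest HS sample for each of the 8 genes on the left.

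The largest differences were those of the inducible Hsp70 genes Hspa1b and Hspa1a, whose products are the main stress-inducible cytosolic Hsp70 chaperones. Hspa1b (chr17:35093374-35096183 of mm9) stood at 280, 223 and 46.0 CPM in HS and at 1.54, 2.03 and 2.94 CPM with tunicamycin, against 6.30, 5.50 and 5.47 CPM in unstressed cells. All HS samples were above and all tunicamycin samples below the unstressed ones, and HS replicate 3 was the lowest HS sample. The log2 fold change was 6.40 (standard error 0.769, adjusted p = 0.0455, edgeR), 84.7-fold, and 6.87 without HS replicate 3. Hspa1a (chr17:35106304-35109101) had 90, 52.1 and 14.4 CPM in HS, 0.490, 0.715 and 0.805 CPM with tunicamycin and 1.43, 2.02 and 1.67 CPM in unstressed cells, and the log2 fold change came to 6.28 (standard error 0.752, adjusted p = 0.0455, edgeR). These genes are near-identical copies, and how the authors' counting split reads between them is uncertain.

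The promoters of both carried a heat shock element, which for the search was GAANNTTC or TTCNNGAA on either strand. Promoters were RefSeq windows of 300 bases on GRCm38.p6, from 250 bases before the start site to 50 after it, and 15.1% of all 32851 such windows held this element. Over the 250 bases before the start, Hspa1a and Hspa1b had the same base at 247 positions. The stretches from 130 to 70 bases before the start are shown because they hold the element of the genes with the largest difference, and that of Hsph1, described below, is the stretch from 60 bases before its start to the start. Hsph1 also held matches after its start, which are not shown. Capitals mark the element, and all 3 stretches lie on the minus strand (chr17:34972226-34972286, chr17:34959308-34959368 and chr5:149636337-149636396).
Hspa1a: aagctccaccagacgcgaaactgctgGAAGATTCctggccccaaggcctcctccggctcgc
Hspa1b: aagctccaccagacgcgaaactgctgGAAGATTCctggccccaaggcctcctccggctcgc
Hsph1: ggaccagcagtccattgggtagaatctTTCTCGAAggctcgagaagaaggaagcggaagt

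Dnajb1, the Hsp40 that loads substrates onto Hsp70, had even replicates. Its levels were 204, 214 and 197 CPM in HS, 36.5, 34.5 and 28.7 CPM with tunicamycin and 57.4, 70.5 and 68.3 CPM in unstressed cells (chr8:86132074-86135801 of mm9). HS replicate 3 was close to the other HS samples here. The log2 fold change was 2.62 (standard error 0.170, adjusted p = 0.0207, edgeR), 6.13-fold, and 2.65 without HS replicate 3. Its window held none of the elements searched.

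Of the 39 cytosolic and nuclear heat shock chaperones tested, these 3 passed the threshold, all higher in HS, and none was higher with tunicamycin. All 3 HS samples lay above all 3 tunicamycin samples for 16 of the 39 and below them for 1, and the median log2 difference was 0.65, beside -0.05 over all genes. Against the unstressed samples, 10 of the 39 lay above in HS and 14 lay below with tunicamycin. The offset for GC content called 10 of the 39, and leaving out HS replicate 3 called 23 higher in HS and 4 higher with tunicamycin.

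Hsph1 (Hsp110), a nucleotide exchange factor for Hsp70, had 504, 292 and 499 CPM in HS, 125, 140 and 143 CPM with tunicamycin and 159, 235 and 211 CPM in unstressed cells. The HS samples were all above the others, with a log2 fold change of 1.66 that missed the threshold (standard error 0.242, adjusted p = 0.0660, edgeR). Bag3 and Hspa8 were picked out after their values were seen. Bag3, an Hsp70 co-chaperone of aggregate clearance, had 616, 618 and 252 CPM in HS and 89.8, 95.4 and 106 CPM with tunicamycin, near its 85.5 to 103 CPM in unstressed cells (log2 fold change 2.35, adjusted p = 0.0681, edgeR). Hspa8, the constitutive Hsp70, had 4080, 4280 and 4600 CPM in HS against 2790, 2640 and 2120 CPM with tunicamycin and 4210, 4860 and 4730 CPM in unstressed cells. Its HS samples therefore overlapped with the unstressed ones and its tunicamycin samples lay below them (log2 fold change 0.77, adjusted p = 0.133, edgeR). Serpinh1 (Hsp47), the ER chaperone of collagen and a heat shock gene, had 3210, 3960 and 1910 CPM in HS and 1200, 1330 and 1500 CPM with tunicamycin (adjusted p = 0.130, edgeR).

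Ubb, a polyubiquitin gene, had 279, 274 and 138 CPM against 126, 151 and 182 CPM, so that HS replicate 3 overlapped with the tunicamycin samples (adjusted p = 0.259, edgeR, and 0.00361 without that replicate).

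Of the 21 other heat shock genes tested, Dedd2 passed the threshold, and all 3 HS samples lay above the tunicamycin samples for 8 and below for 1 (median log2 difference 0.40, or 0.10 with scaling to total counts). Leaving out HS replicate 3 called 12 of the 21 higher in HS and 3 higher with tunicamycin. Dedd2, which encodes a death effector domain protein, had 32.7, 35.1 and 18 CPM in HS, 3.94, 4.12 and 5.31 CPM with tunicamycin and 5.36 to 5.72 CPM in unstressed cells. HS replicate 3 was lower than the other HS samples but above all the rest. The log2 fold change was 2.68 (standard error 0.311, adjusted p = 0.0455, edgeR).

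The other 4 genes called higher in HS were in none of the chaperone lists. Dusp1, a phosphatase that inactivates MAP kinases, had 214, 174 and 105 CPM in HS, 28.5, 27.4 and 28.9 CPM with tunicamycin and 52.9, 62.5 and 53.4 CPM in unstressed cells. The stresses thus lay on opposite sides of the unstressed cells, and the log2 fold change was 2.54 (standard error 0.278, adjusted p = 0.0455, edgeR). Tnfsf9, the 4-1BB ligand, had 39.0, 33.6 and 23.9 CPM in HS against 5.30, 5.51 and 5.82 CPM with tunicamycin (log2 fold change 2.53, adjusted p = 0.0455, edgeR), with 8.76 to 11.1 CPM in unstressed cells. Igf2, the insulin-like growth factor, differed from the other 7 genes in that its HS samples (92.5, 86.8 and 69.9 CPM) overlapped with the unstressed ones (93.4, 63.9 and 58.1 CPM). Its tunicamycin samples were at 25.7, 25.1 and 26.7 CPM, a log2 fold change of 1.68 (adjusted p = 0.0455, edgeR). Serpinf2, the plasmin inhibitor, was low throughout, at 1.32, 1.0 and 0.668 CPM in HS and at 0.0594, 0.0794 and 0.0423 CPM with tunicamycin, where the lowest sample held 2 reads, so the size of its log2 fold change of 3.94 (adjusted p = 0.0455, edgeR) is uncertain.

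B4galt5, Ccdc117, Magee1 and Pdxp had the smallest p-values among the genes higher in HS that missed the threshold with groups that did not overlap and a log2 difference of at least 1, with adjusted p-values of 0.0576, 0.0631, 0.0620 and 0.0620 (edgeR). Ccdc117 was above the unstressed samples in HS (30.8, 30.7 and 39.1 CPM) and at 11.8, 13.8 and 13.4 CPM with tunicamycin. B4galt5, a galactosyltransferase of the Golgi, had 218, 227 and 188 CPM in HS, and its tunicamycin samples (72.9, 79.4 and 99.9 CPM) lay below the unstressed ones at 140 to 246 CPM.

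Of the 11 MAP kinase phosphatases tested 1 passed the threshold, Dusp1, where 0.0628% of all genes were called higher in HS. All 3 HS samples lay above all 3 tunicamycin samples for 5 of the 11 and below them for 1, beside 13.1% and 15.7% of all genes. Without HS replicate 3, 6 were called, all higher in HS, and the GC offset called 2, both higher in HS. Dusp7 had 185, 195 and 123 CPM against 54.0, 54.6 and 63.4 CPM (adjusted p = 0.0631, edgeR). Dusp6, a phosphatase of ERK, had 49.0, 60.2 and 40.7 CPM in HS against 28.7, 25.3 and 24.9 CPM with tunicamycin, where it was below its 52.0 to 53.8 CPM in unstressed cells (adjusted p = 0.107, edgeR). None of the 10 Fos and Jun genes passed the threshold in edgeR, where 5 had an unadjusted p under 0.05, and DESeq2 called 2, both higher in HS. The log2 difference of all 10 was positive, with a median of 0.65, and 4 lay higher in every HS sample. Leaving out HS replicate 3 called 9 of the 10, all higher in HS. The GC offset called 1 of the 10, higher in HS, with a median of 0.39. Fos had 8.34, 7.82 and 3.25 CPM in HS and 0.936, 0.860 and 1.14 CPM with tunicamycin, near its 1.02 to 1.31 CPM in unstressed cells (log2 fold change 2.72, adjusted p = 0.0679, edgeR). Jun had 261, 375 and 178 CPM against 144, 144 and 157 CPM (adjusted p = 0.161, edgeR).

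Gadd45a, which encodes a growth arrest and DNA damage protein that is also a stress response gene, had the smallest p of the genes higher with tunicamycin. It stood at 32.3, 31.2 and 23.5 CPM in HS and at 165, 175 and 207 CPM with tunicamycin, against 15.1, 12.3 and 14.9 CPM in unstressed cells (chr6:66985090-66987401 of mm9). Both stresses lay above the unstressed samples, with tunicamycin 6.30-fold above HS (log2 fold change -2.66, standard error 0.190, adjusted p = 0.0207, edgeR). The value was -2.52 without HS replicate 3. Of the 27 Gadd45 family and p53 target genes tested, 2 passed the threshold, Gadd45a and Plk2, both higher with tunicamycin, and without HS replicate 3 there were 10 higher with tunicamycin and 6 higher in HS. Plk2, a polo-like kinase, had 61.6, 78.7 and 91.5 CPM in HS, below its 109, 116 and 115 CPM in unstressed cells, and 302, 278 and 239 CPM with tunicamycin (log2 fold change -1.83, standard error 0.208, adjusted p = 0.0455, edgeR). Mdm2, the p53 ubiquitin ligase, had 41.4, 48.7 and 74.3 CPM against 83.9, 77.5 and 69.8 CPM, with overlapping groups (adjusted p = 0.256, edgeR). Cdkn1a (p21) had 85.4, 76.1 and 110 CPM against 85.6, 80.7 and 79.2 CPM (adjusted p = 0.609, edgeR).

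Nfil3, Gm129, Klf11 and Arid5a were also higher with tunicamycin. Nfil3, a bZIP repressor of the circadian clock, had 15.4, 14.9 and 22.9 CPM in HS against 72.8, 74.5 and 67.0 CPM with tunicamycin (log2 fold change -2.02, adjusted p = 0.0455, edgeR), and its HS samples overlapped with the unstressed ones at 15.8 to 20.4 CPM. Gm129, now named Ciart, another repressor of the clock, had 2.92, 2.59 and 2.44 CPM against 9.58, 9.81 and 10.6 CPM (log2 fold change -1.92, adjusted p = 0.0455, edgeR). These were the 2 called genes among 18 circadian clock genes tested, for which the median log2 difference was 0.02. Without HS replicate 3, 5 of the 18 were called higher in HS and 6 higher with tunicamycin. Klf11 had 3.91, 4.09 and 3.63 CPM in HS, below its 5.79 to 9.11 CPM in unstressed cells, and 13.4, 14.5 and 17.0 CPM with tunicamycin (log2 fold change -1.95, adjusted p = 0.0455, edgeR). It was the called gene among 12 Kruppel-like factors, of which 4 lay lower and 3 higher in every HS sample, and without HS replicate 3 there were 6 called higher with tunicamycin and 3 higher in HS. Arid5a, which encodes an RNA-binding ARID-domain protein, had 14.0, 16.0 and 8.35 CPM in HS and 65.5, 71.9 and 79.4 CPM with tunicamycin (log2 fold change -2.50, adjusted p = 0.0455, edgeR), both above its 6.73 to 7.98 CPM in unstressed cells.

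Cd209c, a C-type lectin gene, had the largest difference of the genes called higher with tunicamycin, apart from 4932425I24Rik, which was near the floor. It had 6.17, 4.96 and 10.5 CPM in HS and 47.4, 48.7 and 49.2 CPM with tunicamycin, on either side of its 12.6 to 16.7 CPM in unstressed cells (log2 fold change -2.75, standard error 0.308, adjusted p = 0.0455, edgeR). Rab39b, a small GTPase of vesicle traffic, also lay on opposite sides of the unstressed samples (4.72 to 5.45 CPM), at 3.32, 2.77 and 4.65 CPM in HS and 16.2, 16.1 and 17.1 CPM with tunicamycin (log2 fold change -2.21, adjusted p = 0.0455, edgeR). Tspyl4 had even replicates, at 9.58, 11.1 and 9.65 CPM in HS against 30.2, 30.8 and 30.5 CPM (log2 fold change -1.60, adjusted p = 0.0455, edgeR). Socs2, a suppressor of cytokine signalling, Cdh3 (P-cadherin) and Flrt1 were low, with means of 0.448, 0.234 and 0.726 CPM in HS and 2.31, 1.46 and 3.11 CPM with tunicamycin, and log2 fold changes of -2.37, -2.64 and -2.10. The span of Flrt1 overlaps that of Macrod1 in the files, which give no strand.

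Among the remaining called genes, Sfrs5, now named Srsf5, a splicing factor, was the gene whose tunicamycin samples overlapped with the unstressed ones. It had 60.1, 65.5 and 75.4 CPM in HS, 154, 174 and 203 CPM with tunicamycin and 121, 169 and 162 CPM in unstressed cells (log2 fold change -1.40, adjusted p = 0.0455, edgeR, and 0.0640 with the GC offset). It was the called gene of 30 splicing genes tested, and without HS replicate 3 there were 9 called higher in HS and 8 higher with tunicamycin. Acot2, a mitochondrial acyl-CoA thioesterase, had 19.9, 20.9 and 21.4 CPM against 52.0, 49.4 and 49.2 CPM (log2 fold change -1.28, adjusted p = 0.0455, edgeR). The transcript 9430008C03Rik had means of 19.3 and 51.8 CPM. Trem3 and 4932425I24Rik lay below 0.4 CPM in all 6 samples, with 2 and 1 reads in their lowest sample, so that the size of their differences is uncertain.

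The cyclic AMP response element TGACGTCA, bound by the CREB and ATF factors, was searched for after the values were seen. It occurred in 1.79% of all promoter windows and, counted by gene, in at least 1 window of 2.03% of the 27025 genes. Of the called genes, Tnfsf9, Socs2, Cdh3, Flrt1 and Trem3 had no window in the table. The element was in the windows of Dusp1 among the 7 genes with a window that were higher in HS, and of Plk2 and Tspyl4 among the 14 higher with tunicamycin. It was also in that of Myd116, an ISR gene described below. The amino acid response element TGATGNAAT was in the window of 1 of the 14, Rab39b, and in a window of 1.08% of all genes. The heat shock element was in the windows of 3 of the 7 genes (Hspa1a, Hspa1b and, at 1 of its start sites, Igf2) and in 0 of the 14, against 17.0% of all genes. By window these were 3 of 11 windows (27.3%) and 0 of 15, against 15.1% of all. Hspa1a and Hspa1b have near-identical promoters (247 of 250 bases), so their matches are not independent. A longer form of the heat shock element, with 3 alternating units of GAA and TTC, was in 0 of the 7 and 0 of the 14, against 0.662% of all genes. Hsph1, which missed the threshold, held this longer form after its start. A match is a string of letters and no measured site. Capitals mark TGACGTCA in these stretches of about 60 bases before the start sites (Dusp1 chr17:26508583-26508642 and Myd116 chr7:45526269-45526328 on the minus strand, Plk2 chr13:110394954-110395013 and Tspyl4 chr10:34297361-34297420 on the plus strand), shown because they hold the element in 3 genes called in opposite directions and in Myd116, which missed the threshold.
Dusp1: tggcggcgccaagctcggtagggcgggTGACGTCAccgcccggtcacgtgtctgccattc
Plk2: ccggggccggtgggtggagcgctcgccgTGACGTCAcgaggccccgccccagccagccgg
Tspyl4: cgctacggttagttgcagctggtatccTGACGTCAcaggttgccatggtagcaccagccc
Myd116: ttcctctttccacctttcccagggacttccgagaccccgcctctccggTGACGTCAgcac

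The ISR genes lay mostly on the tunicamycin side. Of the 43 tested 1 passed the threshold, where 0.141% of all genes were called higher with tunicamycin. All 3 HS samples lay below all 3 tunicamycin samples for 24 of the 43 and above them for 1, beside 15.7% and 13.1% of all genes. The median log2 difference was -0.69. Against the unstressed samples, 30 of the 43 lay above with tunicamycin and 14 in HS. The offset for GC content called 20 higher with tunicamycin and 1 higher in HS, and leaving out HS replicate 3 called 27 and 5. The called gene was Slc1a4, a neutral amino acid transporter, with 66.0, 66.7 and 60.6 CPM in HS against 163, 153 and 171 CPM with tunicamycin (log2 fold change -1.34, standard error 0.136, adjusted p = 0.0455, edgeR). Its HS samples were below the unstressed ones, at 68.4 to 91.5 CPM.

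Ddit3 (CHOP), the proapoptotic transcription factor of the erUPR and ISR, had 194, 233 and 138 CPM in HS and 416, 520 and 689 CPM with tunicamycin, against 74.0, 69.4 and 72.2 CPM in unstressed cells. It was above the unstressed level in every stressed sample, and the groups did not overlap, but the difference missed the threshold (log2 fold change -1.52, standard error 0.269, adjusted p = 0.0818, edgeR). Its span overlaps that of Mars. Trib3, a pseudokinase target of CHOP, had 69.8, 92.0 and 47.9 CPM against 230, 264 and 331 CPM (log2 fold change -1.98, adjusted p = 0.0654, edgeR). Soat2, a sterol acyltransferase, had 1.22, 1.35 and 1.16 CPM against 4.5, 3.92 and 4.07 CPM (adjusted p = 0.0576, edgeR).

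Atf3, Myd116, Chac1 and Atf5 were picked out after their values were seen. Atf3, a bZIP factor, was near 1 CPM in unstressed cells, at 10.1, 6.27 and 3.97 CPM in HS and at 26.6, 29.0 and 33.1 CPM with tunicamycin (log2 fold change -2.13, adjusted p = 0.0774, edgeR). Myd116, now named Ppp1r15a or Gadd34, which directs the phosphatase of eIF2 alpha, had 68.0, 77.4 and 39.2 CPM against 206, 209 and 256 CPM (adjusted p = 0.0660, edgeR). Chac1, which degrades glutathione, had 119, 154 and 67.4 CPM against 241, 234 and 284 CPM (adjusted p = 0.134, edgeR). Atf4 itself, whose control lies mainly in translation, had 1100, 1400 and 684 CPM in HS, 805, 761 and 849 CPM with tunicamycin and 473 to 490 CPM in unstressed cells, with overlapping stress groups (adjusted p = 0.372, edgeR). Atf5 was the ISR gene higher in every HS sample, at 1990, 2540 and 1040 CPM against 467, 548 and 648 CPM (log2 fold change 1.75, adjusted p = 0.0989, edgeR). Both stresses overlapped with its unstressed samples, at 1390, 437 and 543 CPM. With the GC offset its log2 fold change was 1.0 (adjusted p = 0.0139, edgeR). Its span overlaps that of Nup62.

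The genes of the ER folding machinery were examined as 3 lists. Of 32 ER chaperones and folding enzymes, 25 genes of ER-associated degradation and 16 ER stress sensors and factors, edgeR called 0. At an unadjusted p under 0.05 there were 6 and 2 ER chaperones higher in HS and with tunicamycin, 3 and 3 genes of degradation and 3 and 3 sensors, and DESeq2 called 2 and 1, 1 and 1, and 2 and 2. These calls are few over all genes too (0.0628% and 0.141% in edgeR), so the 0 says nothing particular about these lists. Leaving out HS replicate 3 called 8 ER chaperones higher in HS and 7 higher with tunicamycin, 9 and 6 genes of degradation, and 3 and 6 sensors. The median log2 differences of the lists were 0.04, 0.11 and -0.10. Hspa5 (BiP), the main ER Hsp70, had 667, 694 and 626 CPM in HS, within or below its 656 to 735 CPM in unstressed cells, and 955, 928 and 923 CPM with tunicamycin. The groups did not overlap, and tunicamycin stood 1.42-fold higher, but the difference missed the threshold (log2 fold change -0.50, standard error 0.151, adjusted p = 0.151, edgeR). It was 0.0200 without HS replicate 3 and 0.604 with the GC offset, where the log2 fold change was -0.15. Herpud1, a component of ER-associated degradation, had 130, 154 and 114 CPM in HS and 266, 274 and 289 CPM with tunicamycin, both above its 49.7 to 66.1 CPM in unstressed cells (log2 fold change -1.06, adjusted p = 0.0757, edgeR). Xbp1, the transcription factor spliced by IRE1, had 42.0, 36.8 and 49.8 CPM against 76.1, 71.4 and 64.9 CPM (adjusted p = 0.124, edgeR). Hsp90b1 (GRP94) had 620, 295 and 585 CPM against 632, 637 and 715 CPM (adjusted p = 0.379, edgeR).

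The promoter of Hspa5 held an ER stress response element, CCAAT and CCACG set 9 bases apart, which occurred in 0.119% of all windows and in none of those of the called genes. Hsp90b1, which did not pass the threshold, held 2 such elements, from 212 and 107 bases before its start. That of Hspa5 is shown from 100 to 31 bases before the start, on the plus strand (chr2:34771990-34772059 of GRCm38.p6), with the element in capitals.
Hspa5: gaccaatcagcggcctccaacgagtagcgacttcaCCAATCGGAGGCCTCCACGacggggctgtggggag

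**Figure D4:**
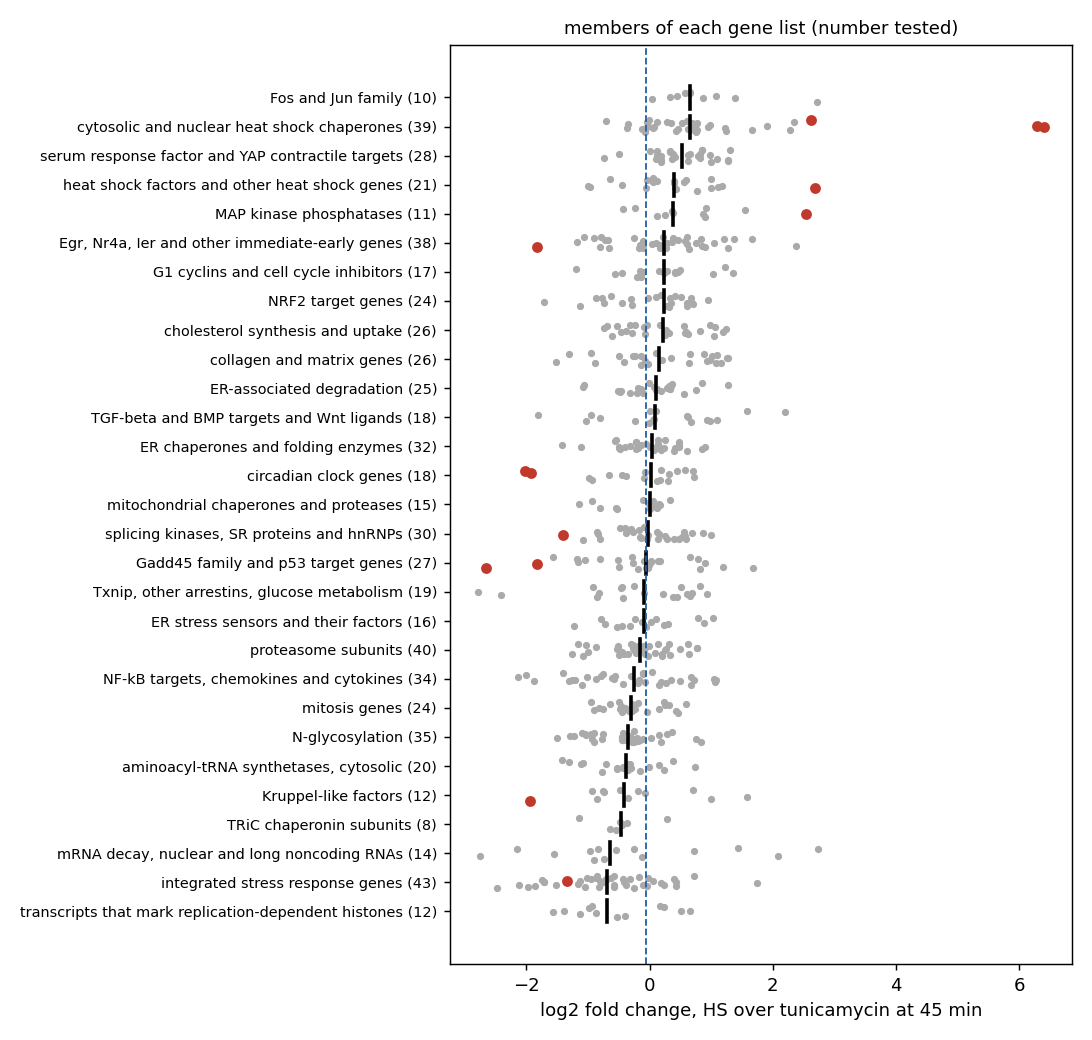
Log2 fold change of HS over tunicamycin at 45 min for the members of 29 gene lists, with the number tested in parentheses. Red points passed an adjusted p of 0.05, grey points did not, black bars are the medians and the dashed line is the median of all genes. Heat shock chaperones (median 0.65) lie towards HS and ISR genes (median -0.69) towards tunicamycin.

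Other gene groups held few or no called genes, where 0.0628% of all genes were called higher in HS and 0.141% higher with tunicamycin. Of 38 immediate-early genes, 1 was called, Plk2, and 10 lay higher and 9 lower in every HS sample (median log2 difference 0.24, or -0.05 with scaling to total counts). Leaving out HS replicate 3 called 17 higher in HS and 8 higher with tunicamycin. Arc, an immediate-early gene of neurons, had 27.1, 24.7 and 10.2 CPM in HS and 3.98, 3.73 and 4.17 CPM with tunicamycin (log2 fold change 2.38, adjusted p = 0.0774, edgeR), while the orphan receptor Nr4a1 had 31.9, 35 and 22.9 CPM against 62.3, 60.9 and 64.2 CPM (adjusted p = 0.0921, edgeR). Of 28 targets of serum response factor and YAP, 0 were called by edgeR, where 13 higher in HS and 2 higher with tunicamycin had an unadjusted p under 0.05, and DESeq2 called 10 and 1. Of the 28, 26 had a positive difference, with a median of 0.52, or 0.26 with scaling to total counts. In every HS sample 11 lay higher and 2 lower, beside 13.1% and 15.7% of all genes. Leaving out HS replicate 3 called 17 higher in HS and 2 higher with tunicamycin, and the GC offset called 2 and 0. Among the 28, Tagln, an actin-binding protein of contractile cells, had 219, 247 and 148 CPM in HS against 85.5, 82.1 and 79.2 CPM with tunicamycin, where it lay below its 147 to 208 CPM in unstressed cells (adjusted p = 0.0774, edgeR). Its span overlaps that of Pcsk7.

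On the tunicamycin side, Txnip, an inhibitor of thioredoxin and of glucose uptake, had 56.1, 25.9 and 94.0 CPM in HS and 326, 314 and 291 CPM with tunicamycin, against 41.0 to 65.3 CPM in unstressed cells (log2 fold change -2.41, adjusted p = 0.0879, edgeR). The paraspeckle RNA Neat1 had 154, 158 and 88.1 CPM in HS against 446, 591 and 752 CPM (log2 fold change -2.16, adjusted p = 0.0654, edgeR). Of 34 NF-kB targets and cytokines, 11 lay lower and 6 higher in every HS sample, and without HS replicate 3 there were 15 called higher with tunicamycin and 7 higher in HS. Lif, an IL-6 family cytokine, had 2.84, 3.64 and 3.36 CPM against 8.84, 8.31 and 8.77 CPM (adjusted p = 0.0660, edgeR). Of 20 cytosolic aminoacyl-tRNA synthetases, targets of ATF4 in part, 9 lay lower and 1 higher in every HS sample, with a median of -0.39, and without HS replicate 3 there were 9 called higher with tunicamycin and 3 higher in HS. Of 261 Zfp zinc finger genes, 81 lay lower and 17 higher in every HS sample, beside 15.7% and 13.1% of all genes. Their median was -0.43, or -0.27 with the GC offset. EdgeR called 0 of the 261, with 55 higher with tunicamycin and 22 higher in HS at an unadjusted p under 0.05, and DESeq2 called 26 and 10. Without HS replicate 3 edgeR called 122 and 54, and with the GC offset 13 and 5.

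Genes of protein degradation, folding and synthesis were examined as 3 further lists. Of 40 proteasome subunits, 0 were called by edgeR or DESeq2, and 2 had an unadjusted p under 0.05 in edgeR. In every HS sample 4 lay higher and 0 lower, beside 13.1% and 15.7% of all genes, while 27 of the 40 had a negative difference (median -0.16). Against the unstressed samples 14 lay below in HS and 18 with tunicamycin, beside 12.8% and 16.0% of all genes. With HS replicate 3 left out, 7 were called higher in HS and 16 higher with tunicamycin. Psmb3, a subunit of the 20S core, had 137, 114 and 144 CPM in HS and 127, 133 and 136 CPM with tunicamycin, both below its 217 to 246 CPM in unstressed cells (log2 fold change -0.01, standard error 0.148, adjusted p = 0.967, edgeR). For the 8 TRiC chaperonin subunits the groups overlapped, with 0 calls by edgeR or DESeq2 and 0 at an unadjusted p under 0.05 in edgeR, but leaving out HS replicate 3 called 6 of the 8, all higher with tunicamycin, and moved the median log2 difference from -0.47 to -0.88. Of 82 cytosolic ribosomal protein genes edgeR called 0, with 12 higher in HS at an unadjusted p under 0.05, and DESeq2 called 3 (median log2 difference 0.15, or -0.14 with scaling to total counts). In 11 of the 82 all HS samples lay above the tunicamycin samples and in 2 below, where 13.1% and 15.7% of all genes did, and leaving out HS replicate 3 called 34 higher in HS and 25 higher with tunicamycin.

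The difference between the stresses at 45 min was then set against that at 135 min, in an edgeR fit of 12 samples with a stress by time interaction. It passed an adjusted p of 0.05 for 402 genes (3.16%), among them 14 of the 18 genes higher with tunicamycin and 1 of the 8 higher in HS, Dusp1. These genes were chosen on the 45 min samples, which also enter the interaction, so their share is not independent of that choice. Gadd45a reached 56.0 ± 8.26 CPM in HS and 45.7 ± 7.18 CPM with tunicamycin at 135 min (SD, n = 3), where it had been 29.0 ± 4.79 and 182 ± 21.7 CPM at 45 min. Plk2 stood at 113 ± 26.1 and 127 ± 23.5 CPM at 135 min, close to its unstressed mean of 113 CPM. Dusp1 was at 53 ± 16.0 CPM in HS and 56.2 ± 10.8 CPM with tunicamycin at 135 min, near its unstressed mean of 56.3 CPM.

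For the heat shock genes the order of the stresses was the same at 135 min. Hspa1b reached 873 ± 530 CPM in HS at 135 min against 6.48 ± 4.81 CPM with tunicamycin (SD, n = 3), and Dnajb1 334 ± 18.2 against 46.3 ± 3.30 CPM, without an interaction past the threshold (adjusted p = 0.806 and 0.657, edgeR). For Hsph1 the difference was larger at 135 min, at 2030 ± 742 against 149 ± 1.99 CPM (interaction of 2.07 on the log2 scale, adjusted p = 0.0235, edgeR). The order was the opposite for Hspa5, with 1340 ± 73.8 CPM in HS and 415 ± 79.1 CPM with tunicamycin at 135 min (interaction of 2.15, adjusted p = 0.00109, edgeR), and for Ddit3, with 360 ± 135 and 208 ± 69.2 CPM (interaction of 2.27, adjusted p = 0.0235, edgeR). With tunicamycin the levels of these genes at 135 min were the lowest of the 3 tunicamycin times, since at 405 min Hspa5 was at 9010 ± 252, Ddit3 at 2630 ± 402 and Gadd45a at 398 ± 42.5 CPM (SD, n = 3). At 135 min with tunicamycin Hspa5 lay below its unstressed mean of 692 ± 40.4 CPM, although tunicamycin is known to induce it. The samples were used as labelled, and the comparison over time rests on those labels, which were not tested.

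**Figure D5:**
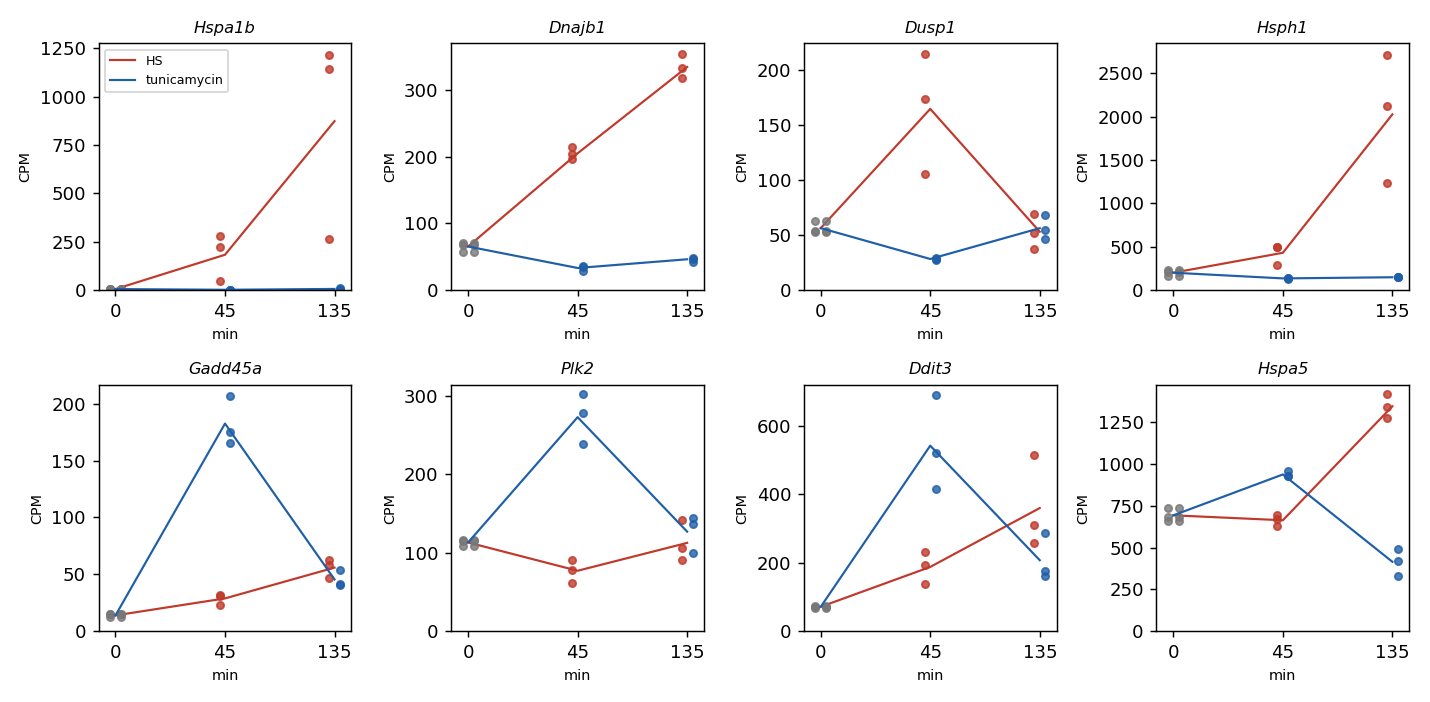
Level in CPM (vertical axis) at 0, 45 and 135 min (horizontal axis, not to scale) for 8 genes under HS (red) and tunicamycin (blue), with a point for each sample, grey for the unstressed samples, and lines through the means. Gadd45a, Plk2 and Dusp1 differ between the stresses mainly at 45 min, Hspa1b and Dnajb1 at both times, and Hspa5 and Ddit3 in opposite order.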

How the data were processed

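Poly(A) RNA of the 18 samples had been sequenced on an Illumina HiSeq instrument, aligned to mm9 and counted on RefSeq genes through DNAnexus; the aligner and counter are not given in the sources used here, nor which of the 2 library protocols of the methods was used for which sample. Per gene, the authors deposited an estimated count without normalization, rounded to 4 significant digits, an RPKM value, a score per library made from the RPKM by centring and scaling, and a signal, the RPKM divided by its root mean square. Only the estimated counts were tested, after rounding to whole numbers. Each file lists 20207 genes and values were joined by gene name.

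The 3 HS and 3 tunicamycin samples at 45 min entered the quasi-likelihood test of edgeR 4.0.16 (R 4.3.3, TMM), with Benjamini-Hochberg adjustment over 12731 genes with at least 1 read in each of 18 samples. The threshold of 0.05 is that of the study's methods. Log2 fold changes are HS minus tunicamycin, standard errors come from the fold change and its F statistic, and CPM values were scaled by TMM over the 18 samples. A level of 3 reads was 0.0451 to 0.0681 CPM in the 6 samples, which covers counting error only. Replicates differed by a chi-square per degree of freedom of 40.5 to 824, more than counting error alone gives. This cannot show whether they came from separate cultures or from separate preparations of the same RNA.

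The genes named are the 12 with the largest difference in each direction among those past the threshold whose groups did not overlap and with a mean of 50 reads or more in the higher group, filled up by p-value where there were fewer, with Hsph1, Hspa1b, Hspa5, Ddit3, Ubb, Mdm2 and Psmb3 and, for each list described, the first 2 genes and the 3 with the smallest p. The other called genes were added, and genes outside this rule are marked as picked out after their values were seen. A gene that the rule also named is not reported here. The 31 gene lists and the samples were chosen with earlier results of these data known. Of the listed symbols, 18 were matched through another symbol and 4 were not matched. An exact permutation test of 3 against 3 samples cannot go below p = 0.10, so none was used.

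The alternatives were no filter, at least 1 read in the 6 samples, filterByExpr, DESeq2 1.42.0, edgeR's exact test, limma 3.58.1 voom with sample quality weights, DESeq2 size factors, total counts, 1 fit over the 6 groups, a block for the replicate number, a lowess offset (span 0.3) for the GC content of transcripts, 1 sva 3.50.0 surrogate variable, a fold change of 1 or more on the log2 scale beside the threshold, and leaving out each sample. The GC offset also removes any true difference that follows GC content. The fits were tested on simulated data, with counts drawn independently at the dispersion of each gene. Changes were set only in genes with a mean of 50 reads or more. Neither a GC trend nor a sample that stood apart from its group was simulated, so the recovery may not hold for the real samples. The comparison at 45 min recovered 6% of true log2 changes of 1, 73% of those of 2 and 98% of those of 4. The interaction recovered 4%, 45% and 96%. Genes with smaller differences can therefore miss the threshold. Promoter sequences are from RefSeq on GRCm38.p6, and motifs were searched on both strands with Python 3.11.15.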

Additional observations from a re-analysis of the deposited data

Results flagged for a closer look

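For 31 of the 60 genes named, the difference between HS and tunicamycin at 135 min differed from that at 45 min by the interaction in the edgeR fit (adjusted p under 0.05), and each is given as the log2 difference at 135 min minus that at 45 min. Many of these genes were named for their values at 45 min, which enter the interaction. Among the genes called higher with tunicamycin at 45 min the values were 5.67 for Cdh3, 3.99 for 4932425I24Rik, 3.88 for Flrt1, 3.87 for Trem3, 2.97 for Socs2, 2.91 for Gadd45a, 2.85 for Rab39b, 2.52 for Arid5a, 2.15 for Nfil3, 1.87 for Gm129, 1.64 for Tspyl4, 1.61 for Plk2, 1.51 for Klf11 and 1.43 for Slc1a4. Cdh3 had 1.68 ± 0.444 CPM in HS and 0.197 ± 0.00798 CPM with tunicamycin at 135 min (SD, n = 3), the opposite order of 45 min.

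Among the genes of the ISR and the erUPR that had missed the threshold at 45 min, the values were 5.53 for Atf3, 3.15 for Trib3, 2.88 for Herpud1, 2.46 for Chac1, 2.32 for Myd116, 2.27 for Ddit3, 2.15 for Hspa5 and 1.49 for Xbp1. Atf3 reached 50.9 ± 20.4 CPM in HS and 4.68 ± 0.846 CPM with tunicamycin at 135 min (SD, n = 3). The value was 3.09 for Txnip and 2.07 for Hsph1. Negative values were found for Fos at -3.13, Dusp1 at -2.67, Nr4a1 at -1.77, Pdxp at -1.71, Dusp7 at -1.48, Dusp6 at -1.33 and Magee1 at -1.18.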

How the results depend on the processing

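The 26 calls kept to within 1.5 times their number without a filter (20), with at least 1 read in the 6 samples (27), with filterByExpr (27), with DESeq2 size factors (21) and with a fold change of 1 or more on the log2 scale (26). Other fits gave more calls, as the number in all, higher in HS, higher with tunicamycin and in the gene lists (12 in the fit reported): 1127, 748, 379 and 175 with the DESeq2 Wald test, 770, 466, 304 and 126 with edgeR's exact test, 9282, 4397, 4885 and 824 with limma voom and sample quality weights, 116, 21, 95 and 39 with total counts, 1270, 719, 551 and 174 with the shared fit of all groups, 491, 250, 241 and 93 with the GC offset, and 1592, 641, 951 and 216 with 1 surrogate variable. Each of these kept the 26 genes, except that the GC offset kept 25. Scaling to total counts moved the median log2 difference of all genes from -0.054 to -0.328.

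With the replicate number as a block edgeR made 0 calls in every one of these counts, with 1459 genes at an unadjusted p under 0.05, and with the GC offset and the block 0 calls, with 2083. Samples with the same number deviated in opposite directions (correlations of -0.609, -0.231 and -0.711). The highest correlation was 0.679, between HS replicate 1 and tunicamycin replicate 3. Deviations from a group mean of 3 samples depend on each other, so these values cannot show whether samples with the same number were paired. Leaving out each of the 6 samples gave from 0 to 7087 calls, from 0 to 3416 higher in HS, from 0 to 3671 higher with tunicamycin, from 0 to 675 in the lists, and from 0 to 26 of the 26 genes. The upper values are all those without HS replicate 3. The counts at an unadjusted p under 0.05 with edgeR were 1494 and 1762 without HS replicates 1 and 2, and 1340, 1360 and 2066 without tunicamycin replicates 1, 2 and 3. The cause was not tested.

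The interaction with time passed the threshold for 402 genes, for 312 without a filter, 579 with total counts, 999 with DESeq2 and 130 with the replicate block, and for 109 to 825 when a 45 min sample was left out, the highest being without HS replicate 3. The depth limits Serpinf2, Trem3 and 4932425I24Rik, with 1 or 2 reads in their lowest sample.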
